A study of Mus musculus with 6 samples.

Results

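The genes followed here, 10 of the carnitine shuttle and of mitochondrial beta-oxidation, were measured in RNA sequencing of 3T3-F442A cells, a mouse preadipocyte line labelled as an adipocyte line. The genes were fixed by symbol (Cpt1a, Cpt2, Slc25a20, Acadm, Acadl, Acadvl, Hadha, Hadhb, Acaa2 and Etfdh), and a row of the deposited table was taken when its gene names held one of them. Of the 10 genes, 9 had a row of their own among 31097 rows. Acadl had none and was not analysed here. The WT group was the parental line with intact SWELL1 (3 libraries), and the SWELL1 KO group was the same line after the SWELL1 gene had been knocked out with CRISPR/Cas9 (3 libraries). SWELL1, official symbol Lrrc8a, is a protein of the anion channel that opens when cells swell. Its transcript could not check the labels, since its row also names Nup188 and Phyhd1. That row of 3 genes held 32.5, 35 and 33.2 FPKM in WT replicates 1, 2 and 3, against 28.8, 28.05 and 27.3 in the KO replicates, lower in every KO library by a modest amount. Both groups were grown in RPMI with 10% FBS. The labels call the libraries biological replicates, but name neither the number of KO clones nor a differentiation step. The mark D3 stands in the sample names of the KO libraries alone, with no explanation. Genotype, clone and whatever D3 stands for cannot be told apart, and the p-values refer only to how these libraries vary.

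Long-chain fatty acids cannot cross the inner mitochondrial membrane as CoA esters. CPT1 on the outer membrane moves the acyl group to carnitine, the carrier encoded by Slc25a20 exchanges acylcarnitine for free carnitine, and CPT2 on the inner membrane restores the CoA ester. Each turn of beta-oxidation then runs through an acyl-CoA dehydrogenase, a hydratase, a hydroxyacyl-CoA dehydrogenase and a thiolase, and the electrons of the first step pass through the electron transfer flavoprotein and the oxidoreductase encoded by Etfdh to ubiquinone. CPT1 is the step that malonyl-CoA, the first product of fatty acid synthesis, inhibits. Many of these genes are known targets of the PPAR nuclear receptors in liver, muscle and fat.

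Reference sequence is given here for a pair of transferase genes, Cpt1a with Cpt2, and a pair of subunit genes, Hadha with Hadhb. It lies just before their RefSeq start sites (for the second pair, in the gap between the genes). The ratio within each pair lay apart between the groups. That of Acadvl to Acadm, not printed here, did so too. The share of all gene pairs that do so was not computed, and 71.8% of all tested rows did not overlap between the groups. The sequences are RefSeq promoter sequence of GRCm38.p6, 5′ to 3′ on the strand of the gene (for the last, the strand of Hadhb), trimmed to bases that lie in no annotated exon. Capitals mark the GC box GGGCGG and the nuclear receptor half-site AGGTCA, on either strand. They lie at chr19:3323051-3323284 (plus strand), chr4:107923611-107923839 (minus strand) and chr5:30155163-30155247 (plus strand). The RefSeq start site of Cpt1a is at 3323301, while the longest annotated gene span opens further upstream. The Cpt1a stretch therefore begins 717 bases inside that span, in an intron of the transcript with the earlier start.
Cpt1a: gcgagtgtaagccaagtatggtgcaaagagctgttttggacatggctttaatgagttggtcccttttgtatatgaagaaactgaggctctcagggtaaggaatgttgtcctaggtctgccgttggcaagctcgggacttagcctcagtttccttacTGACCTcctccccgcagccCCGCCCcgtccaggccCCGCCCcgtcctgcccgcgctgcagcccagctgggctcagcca
Cpt2: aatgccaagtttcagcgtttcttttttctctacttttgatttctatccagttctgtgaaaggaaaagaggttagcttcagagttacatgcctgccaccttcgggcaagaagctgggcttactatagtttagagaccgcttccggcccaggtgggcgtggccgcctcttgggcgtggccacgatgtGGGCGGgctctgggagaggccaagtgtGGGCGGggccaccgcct
Hadha-Hadhb: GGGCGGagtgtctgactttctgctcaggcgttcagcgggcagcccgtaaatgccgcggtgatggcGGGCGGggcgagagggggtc
The Cpt1a and Cpt2 stretches each held 2 GC boxes, and the Cpt1a stretch also held 1 half-site. The last stretch is the whole gap of 85 bases between the annotated ends of Hadha and Hadhb, which are transcribed away from each other. Their RefSeq start sites lie 273 bases apart, and their promoter windows of 300 bases share 228 bases.

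Promoter windows of 300 bases were found for 8 of the 9 measured members. Acaa2, a large increase described below, had no window and was not searched. The PPAR-RXR direct repeat, AGGTCA repeated with a single base of any kind between, was searched on both strands and matched in 0 of the 8 and in 0.0396% of 32851 mouse windows. The ERR consensus TNAAGGTCA matched in 0 of 8, against 1.28% of all windows. The half-site AGGTCA, which both longer motifs contain, was found in the windows of Cpt1a, Acadm and Acadvl, 3 of 8 against 16.3% of all windows. GGGCGG was found in 6 of 8 windows against 35.7%, and the windows of Hadha and Hadhb share 1 of these boxes. The members' windows held 50.7% to 62.3% G and C, against a median of 52.7% over all windows. CCAAT was found in 2 of 8 (Cpt1a and Etfdh) against 37.4%, TATAAA in 0 of 8 against 13.6%, and the cyclic AMP response element TGACGTCA in 0 of 8 against 1.79%. A match is only a description of these letters, and windows this close to a start site leave out distal elements. Exact matches of the PPAR-RXR repeat, the ERR consensus and the cyclic AMP response element are rare in all windows. For these, 0 of 8 cannot show that such sites are absent.

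Messenger RNA of 6 of the 9 measured members was higher in KO and that of 0 was lower (limma, adjusted p under 0.05). Of all 10515 tested rows 65.2% were called, 28.5% higher and 36.7% lower. In 7 members every KO library lay above every WT library, and in 0 below; over all tested rows 71.8% did not overlap, 31.5% higher and 40.3% lower. At an unadjusted p under 0.05, 7 members were higher and 0 lower, against 30.1% and 38.4% of all tested rows. All 9 members passed the filter on low values, a mean of at least 0.5 FPKM. FPKM scale fragment counts by transcript length and library depth, so levels can be compared between genes, though only roughly. The annotation release and strand use behind them were not stated. The median log2 fold change of the 9 members, KO minus WT on the log2(FPKM + 0.5) scale, was 0.43, against -0.07 over all tested rows. The increases were uneven. Cpt1a and Acaa2 rose 5.91-fold and 3.04-fold, 4 members rose 1.35-fold to 1.49-fold, and Cpt2, Acadvl and Hadha did not pass the test.

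**Figure D1:**
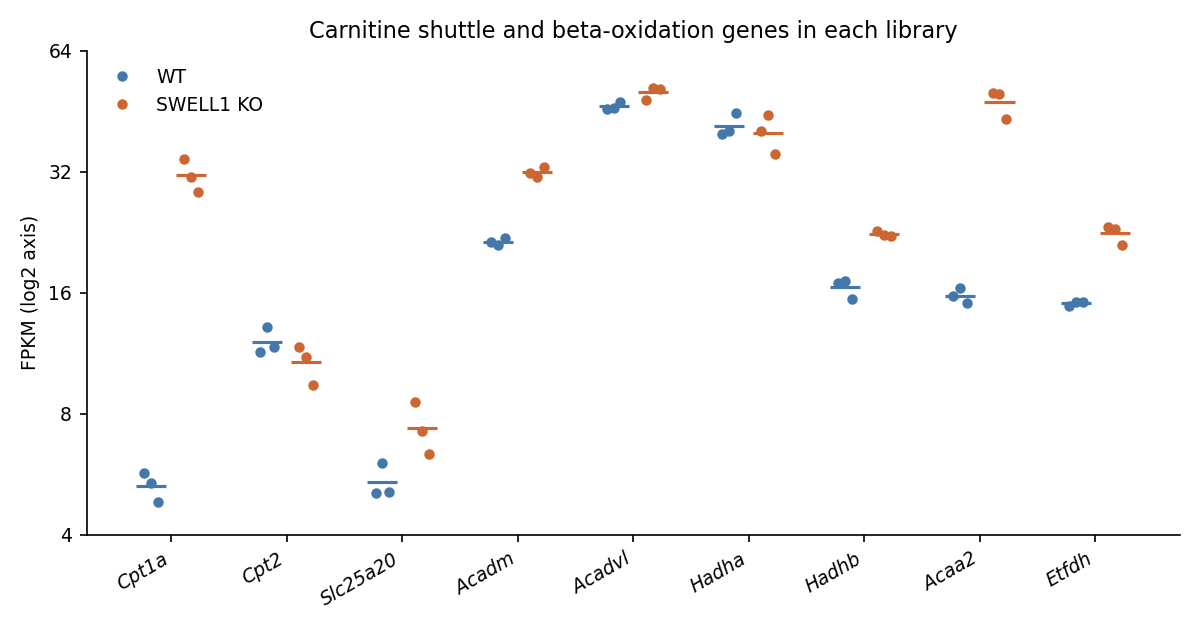
Level of each measured member in each library, in FPKM on a log2 axis, with WT and SWELL1 KO side by side; points are libraries and bars are means of 3. Cpt1a, between 4.82 and 5.69 in WT, stood between 28.5 and 34.5 in KO, and the points of Cpt2 and Hadha overlap between groups.

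Cpt1a encodes the form of the outer-membrane carnitine palmitoyltransferase found in liver and in most other tissues (chromosome 19, 3322334 to 3385733, GRCm38). The values for replicates 1, 2 and 3 were 5.69, 5.38 and 4.82 FPKM (WT) against 34.5, 31.1 and 28.5 (KO), and other values follow this order. The lowest KO library lay far above the highest WT library. The means were 5.30 ± 0.44 and 31.3 ± 3.02 FPKM (SD, n = 3 each), a log2 fold change of 2.46 (SE 0.09, limma adjusted p = 9.07e-06). Only 1.39% of tested rows had a larger log2 fold change.

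Slc25a20, which encodes the carnitine-acylcarnitine carrier (chromosome 9, 108662088 to 108684641), gave 5.08, 6.05 and 5.12 FPKM (WT) against 8.58, 7.24 and 6.37 (KO). The groups did not overlap, though WT replicate 2 and KO replicate 3 lay close together. The rise was 1.36-fold (log2 fold change 0.41, SE 0.12, limma adjusted p = 0.0277). This call was lost when any of WT replicates 1 and 3 and KO replicates 1 and 2 was left out (limma adjusted p from 0.0607 to 0.0849).

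Cpt2, the inner-membrane transferase gene (chromosome 4, 107903981 to 107923610), gave 11.4, 13.1 and 11.7 FPKM (WT) against 11.7, 11.1 and 9.41 (KO). The groups overlapped. The log2 fold change was -0.16 with a 95% interval from -0.41 to 0.08 (limma adjusted p = 0.188), so a rise of the size seen for Cpt1a lay outside it. The ratio of Cpt1a to Cpt2 within a library does not change when each library is scaled by a single factor, though quantile normalization can change it. It was 0.49997, 0.410 and 0.411 in WT and 2.94, 2.81 and 3.02 in KO. Transcripts of Cpt2 were thus the more abundant per length in all WT libraries, and those of Cpt1a in all KO libraries. The log2 ratio differed by 2.73 between groups (two-sided exact permutation test, p = 0.10, the smallest that 3 against 3 libraries allow; Benjamini-Hochberg adjusted p = 0.10 over 3 ratios).

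The first oxidation step is shared among acyl-CoA dehydrogenases that differ in the chain length they prefer. Acadm, for medium chains (chromosome 3, 153922357 to 153944632), gave 21.4, 21.0 and 21.9 FPKM (WT) against 31.8, 31.1 and 32.9 (KO). Its libraries were tight within each group and far apart between them. It rose 1.49-fold (log2 fold change 0.56, SE 0.04, limma adjusted p = 7.42e-05). Acadvl, for very long chains (chromosome 11, 70010183 to 70015411), gave 45.7, 46.2 and 47.8 FPKM (WT) against 48.2, 51.6 and 51.5 (KO). All KO libraries lay above all WT libraries, by little. The log2 fold change was 0.11 with a 95% interval from 0.01 to 0.22, and did not pass after adjustment (limma adjusted p = 0.0574). Acadvl passed under median-ratio scaling (log2 fold change 0.20), under quantile normalization (0.30) and without KO replicate 1 (0.15). The ratio of Acadvl to Acadm was 2.13, 2.19 and 2.19 in WT and 1.52, 1.66 and 1.57 in KO, a log2 difference of -0.46 (exact permutation p = 0.10).

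Acadvl shares 1151 of its 2686 bases of annotated exon with Dvl2, a Wnt pathway gene on the opposite strand. It is not stated whether the counting used strand. The row of Dvl2, which also names Mir324, gave 15.3, 14.7 and 14.1 FPKM (WT) against 20.1, 18.4 and 20.1 (KO). Its log2 fold change was 0.40 (limma adjusted p = 0.00125). Its part in the Acadvl values was not tested. Etfdh shares 278 of its 7505 exon bases with the RIKEN gene 4930579G24Rik. The row of that gene gave 3.30, 3.19 and 3.76 FPKM (WT) against 4.70, 3.97 and 4.72 (KO). That row was higher in every KO library, as Etfdh was (log2 fold change 0.34, limma adjusted p = 0.0211), and its part in the Etfdh values was not tested. Hadha shares 75 of 8730 exon bases with Garem2, whose row was listed at 0 in every library.

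The trifunctional protein carries the next 3 reactions for long chains. Its alpha subunit, from Hadha (chromosome 5, 30118304 to 30155162), holds the hydratase and dehydrogenase activities, and its beta subunit, from Hadhb (chromosome 5, 30155248 to 30184593), the thiolase. Hadha gave 39.8, 40.4 and 44.9 FPKM (WT) against 40.5, 44.3 and 35.4 (KO). The groups overlapped, with a log2 fold change of -0.06 (95% interval -0.29 to 0.17, limma adjusted p = 0.594). Its sign turned under median-ratio scaling, under quantile normalization and without KO replicate 3. Hadhb gave 16.9, 17.2 and 15.4 FPKM (WT) against 22.8, 22.2 and 22.1 (KO). It rose 1.35-fold (log2 fold change 0.43, SE 0.05, limma adjusted p = 0.000704) with no overlap.

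Per length, Hadha transcripts outnumbered those of Hadhb in every library. The ratio of Hadha to Hadhb was 2.35, 2.36 and 2.90 in WT and 1.78, 1.99 and 1.60 in KO. Every KO ratio lay below every WT ratio, with a log2 difference of -0.50 (exact permutation p = 0.10; adjusted p = 0.10 over 3 ratios).

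**Figure D2:**
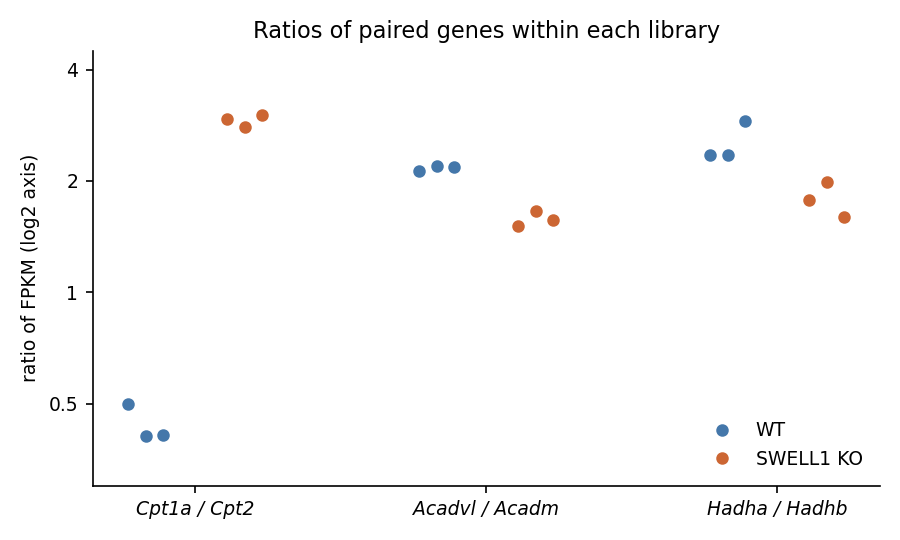
Ratio of FPKM of paired genes within each library (log2 axis), 3 WT and 3 SWELL1 KO libraries per pair. Cpt1a to Cpt2 lies between 0.410 and 0.49997 in WT and between 2.81 and 3.02 in KO, while Acadvl to Acadm and Hadha to Hadhb are lower in all KO libraries than in all WT libraries.

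Acaa2, a mitochondrial thiolase that releases acetyl-CoA, was the other large increase. It gave 15.7, 16.4 and 15.1 FPKM (WT) against 50.2, 49.9 and 43.2 (KO). Every KO library lay far above every WT library. The means were 15.7 ± 0.66 and 47.8 ± 3.97 FPKM (SD, n = 3 each), with a log2 fold change of 1.57 (SE 0.07, limma adjusted p = 1.74e-05). Etfdh (chromosome 3, 79603788 to 79629500) gave 14.8, 15.2 and 15.2 FPKM (WT) against 23.3, 23.1 and 21.1 (KO). It rose 1.49-fold (log2 fold change 0.56, SE 0.05, limma adjusted p = 0.000213).

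The order of levels differed between the groups. In WT, Acadvl stood highest (mean 46.6 FPKM), followed by Hadha (41.7) and Acadm (21.5). Next came Hadhb, Acaa2 and Etfdh, whose neighbouring ranges overlapped at 16.5, 15.7 and 15.1 FPKM. Cpt2 (12.1) stood above Slc25a20 and Cpt1a (5.42 and 5.30), which overlapped. In KO, Acadvl (50.5), Acaa2 (47.8) and Hadha (40.1) formed a chain of overlapping ranges at the top. Acadm (31.96) and Cpt1a (31.3) overlapped, as did Etfdh (22.5) and Hadhb (22.4), and Cpt2 (10.7) and Slc25a20 (7.40) closed the order. Cpt1a moved from the lowest of 9 to the fifth place. Summed over the 9 genes, levels ran from 177 to 182 FPKM in WT and from 250 to 272 in KO.

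Genes of related lists did not follow the members as a block. These lists hold other genes of the route, but also regulators, PPAR targets outside it, the tricarboxylic acid cycle and mitochondrial content. Over 11 lists of related genes with 105 tested members, 24 (22.9%) were called higher and 38 (36.2%) lower, against 28.5% and 36.7% of all tested rows. Median-ratio scaling gave 33 higher and 30 lower in the lists, against 3463 and 3381 of all 10515 tested rows. Quantile normalization gave 39 and 31, against 3431 and 3378. The number called higher in the lists thus depends on the scaling.

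**Figure D3:**
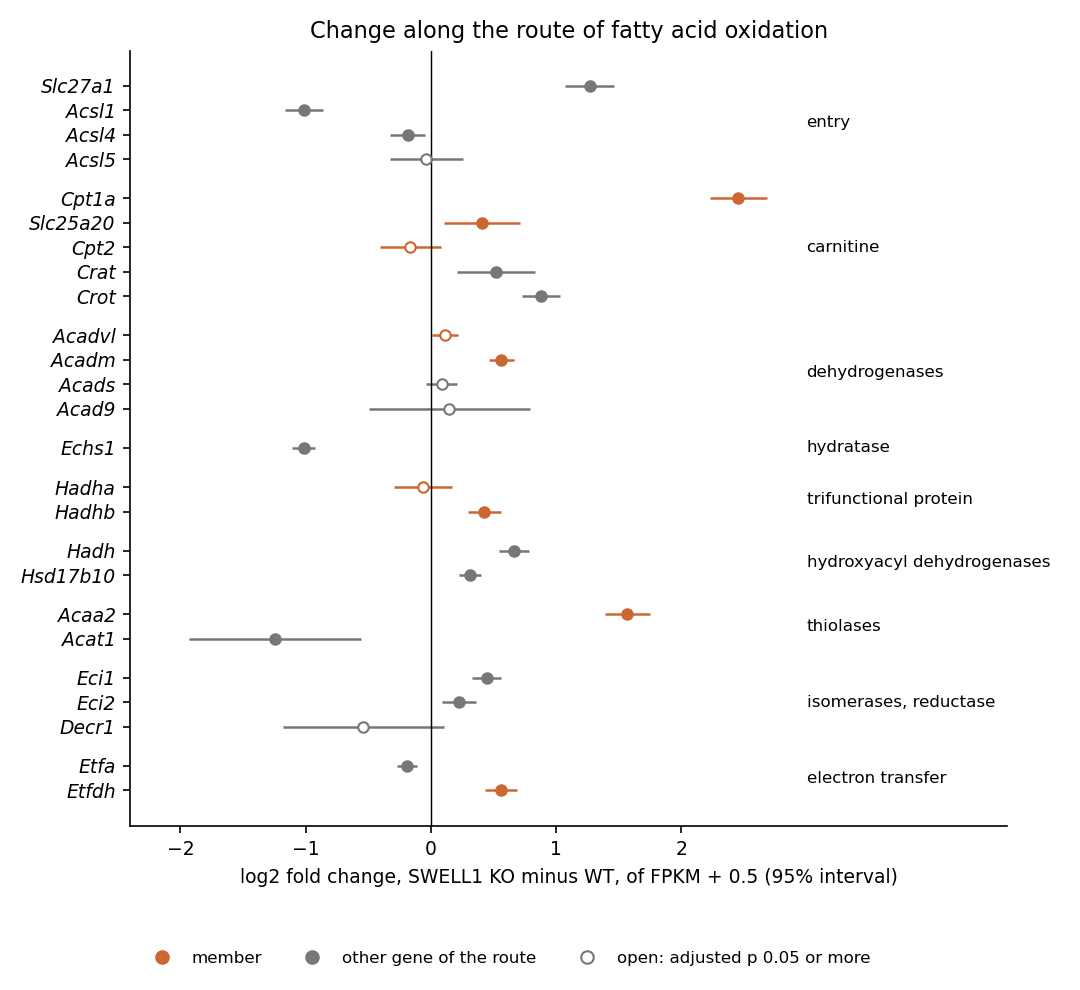
Log2 fold change of FPKM + 0.5, SWELL1 KO minus WT, with 95% intervals, for members (orange) and other genes of fatty acid oxidation (grey) ordered by step; open symbols did not pass. Cpt1a at 2.46 and Acaa2 at 1.57 lie farthest right, and Echs1 at -1.01 and Acat1 at -1.25 lie left.

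Of 13 tested further mitochondrial enzymes, 4 rose and 3 fell, with a median log2 fold change of 0.09. Over all tested rows 28.5% were called higher and 36.7% lower. Hadh, the hydroxyacyl-CoA dehydrogenase for shorter chains, rose from 43.6 ± 1.31 to 69.4 ± 3.36 FPKM (limma adjusted p = 8.55e-05). The enoyl-CoA isomerase gene Eci1 rose 1.37-fold and Hsd17b10, a dehydrogenase of branched and short chains, 1.24-fold. Echs1, the short-chain hydratase gene between the dehydrogenases and Hadh, fell from 51.6 ± 1.41 to 25.3 ± 0.32 FPKM (limma adjusted p = 8.27e-06). Acat1, the thiolase gene of ketone and isoleucine metabolism, gave 62.1, 44.8 and 56.7 FPKM (WT) against 18.5, 17.8 and 34.4 (KO) (limma adjusted p = 0.00899), and the methylmalonyl-CoA mutase gene Mut fell 1.19-fold. Messenger RNA of Echs1 and Hadh, genes of neighbouring steps, thus changed in opposite directions. Etfa, which encodes the alpha subunit of the flavoprotein that feeds Etfdh, fell 1.14-fold (limma adjusted p = 0.00328). The Etfa call was lost under median-ratio scaling and its sign turned under quantile normalization.

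In carnitine handling 2 of 5 tested genes rose and 1 fell, against 28.5% and 36.7% of all tested rows. Crot, the peroxisomal carnitine octanoyltransferase gene, rose from 4.57 ± 0.12 to 8.84 ± 0.55 FPKM and Crat, the carnitine acetyltransferase gene, 1.47-fold. Cpt1c, the brain-type relative of Cpt1a, fell from 15.7 ± 0.77 to 10.02 ± 0.54 FPKM (limma adjusted p = 0.000275). The muscle form Cpt1b shared its row with Chkb, and no value is given. In the list of fatty acid uptake and activation 1 of 8 rose and 5 fell, against the same shares of all tested rows. Slc27a1, a fatty acid transport protein gene, rose from 6.91 ± 0.07 to 17.4 ± 1.77 FPKM. The binding protein gene Fabp5 fell 5.93-fold, from 246 ± 16.4 to 41.5 ± 2.65 FPKM, and Acsl1, which activates long-chain fatty acids, 2.11-fold. Acbd3, counted in that list though it is not an uptake or activation enzyme, fell 1.83-fold.

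Peroxisomes shorten very long and branched chains in a separate route. Of 11 tested peroxisomal genes 3 rose and 5 fell (median log2 fold change -0.23), against 28.5% and 36.7% of all tested rows. The racemase gene Amacr rose 1.66-fold and the transporter gene Abcd3 1.27-fold. Phyh, for phytanic acid, fell 1.79-fold, Pex11a, a peroxisome division gene, 1.61-fold and the carrier gene Scp2 1.57-fold.

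Genes that set malonyl-CoA, the inhibitor of CPT1, rose in 3 of 9 tested cases and fell in 4. Over all tested rows 28.5% were higher and 36.7% lower. Acaca and Acacb, the acetyl-CoA carboxylases that make malonyl-CoA, rose from 9.91 ± 0.18 to 14.4 ± 1.38 FPKM and from 1.09 ± 0.23 to 2.28 ± 0.19. Mlycd, which removes it, gave 5.41, 7.37 and 5.20 FPKM (WT) against 5.18, 5.47 and 5.27 (KO) (limma adjusted p = 0.365). Among subunits of AMPK, the kinase that inhibits the carboxylases, Prkaa1 rose 1.40-fold, from a mean of 19.4 to 27.2 FPKM. Prkaa2, Prkab2 and Prkag2 fell 2.35-fold, 1.87-fold and 1.82-fold, from lower WT means of 1.40, 6.23 and 2.24 FPKM. Prkab1, with a WT mean of 14.3 FPKM, fell 1.26-fold.

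**Figure D4:**
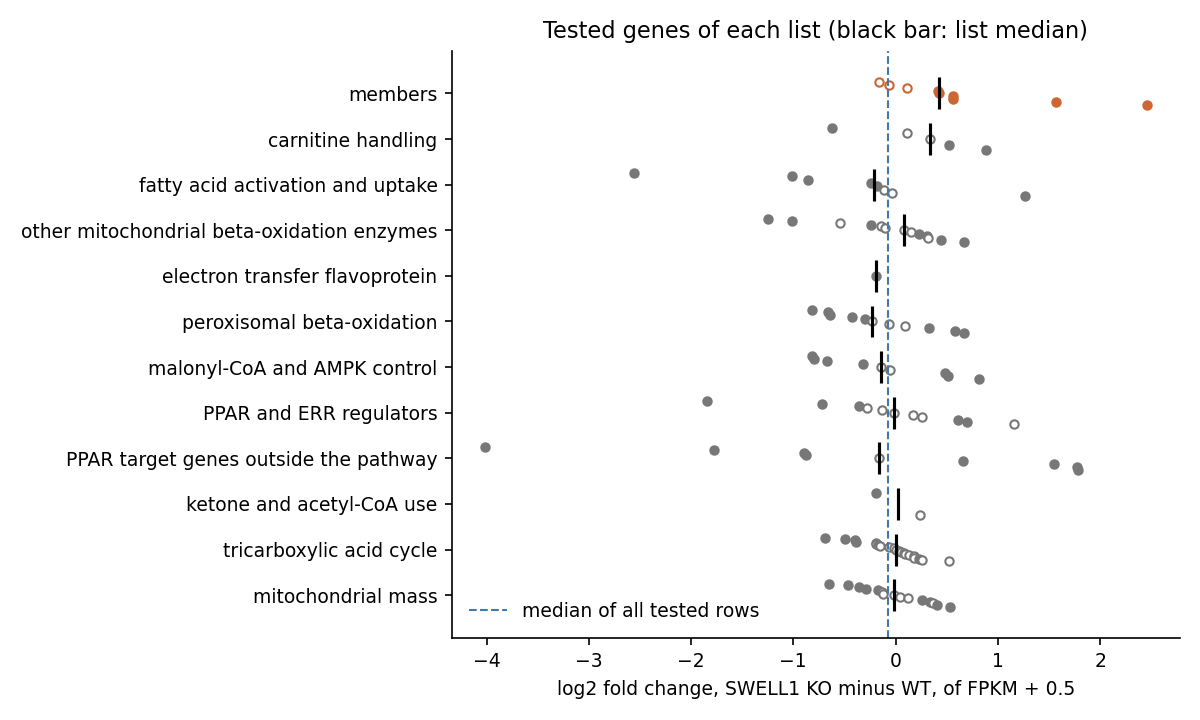
Log2 fold change of every tested gene of the members and of 11 related lists; filled points passed, black bars are list medians and the dashed line is the median of all tested rows (-0.07). The members have a median of 0.43 and no filled point below 0, while most other lists spread to both sides.

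Of 9 tested genes listed here as PPAR targets outside beta-oxidation, 4 rose and 4 fell, against 28.5% and 36.7% of all tested rows. The pyruvate dehydrogenase kinase gene Pdk4 rose from 10.7 ± 0.66 to 32.4 ± 2.64 FPKM, the secreted lipase inhibitor gene Angptl4 from 20.9 ± 3.46 to 73.0 ± 8.67, and the lipid droplet gene Plin2 3.46-fold. Their log2 fold changes of 1.55, 1.78 and 1.78 lay on both sides of that of Acaa2. On the other side, the lipoprotein receptor gene Vldlr fell 23.5-fold, from 24.1 ± 1.22 to 1.03 ± 0.07 FPKM, Fgf21 fell from 3.12 ± 0.61 to 0.60 ± 0.42, and Txnip fell 1.85-fold.

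Of the PPAR genes, Ppara and Pparg had rows with low values. Ppara gave 0.314, 0.236 and 0.193 FPKM (WT) against 0.541, 0.2001 and 0.350 (KO), under the filter and not tested. Pparg fell from 2.49, 1.96 and 1.05 FPKM to 0.182, 0.0689 and 0.130 (limma adjusted p = 0.00136). Ppard had no row and was not analysed here. The coactivator gene Ppargc1a gave 0, 0.0158 and 0 FPKM (WT) against 0.626, 0.965 and 0.434 (KO), untested, and Ppargc1b was at 0.96 ± 0.12 and 1.15 ± 0.24 (limma adjusted p = 0.335). Esrra was listed at 0 in all 6 libraries, as was Sirt3. Among 11 tested regulators 2 rose and 3 fell, against 28.5% and 36.7% of all tested rows. The corepressor gene Nrip1 rose 1.67-fold, and besides Pparg, Gabpa fell 1.68-fold and Sirt1 1.44-fold.

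Mitochondrial genes outside beta-oxidation gave no general rise in the reported fit. Of all tested rows, 28.5% were called higher and 36.7% lower. Under the other scalings, calls were counted only over all related lists together. In the tricarboxylic acid cycle, which burns the acetyl-CoA, 1 of 21 tested genes rose and 6 fell (median log2 fold change 0.01). Suclg1 rose 1.17-fold, and Dld, Sdhb and Sdhd fell 1.62-fold, 1.41-fold and 1.32-fold. Of 15 tested genes of import, chaperones and membrane shape, taken as a guide to mitochondrial content, 4 rose and 5 fell (median -0.01), with Hspd1 1.44-fold, Timm44 1.33-fold and Tomm20 1.27-fold higher and Opa1 1.59-fold, Hspa9 1.38-fold and Chchd3 1.28-fold lower. Of the 2 tested genes of ketone and acetyl-CoA use, Acly fell 1.14-fold, with its sign turned under quantile normalization. The calls of Chchd3 and Acly were lost under median-ratio scaling, and that of Chchd3 under quantile normalization.

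By the profile over the 6 libraries, the rows most like Cpt1a were Gchfr, Hrsp12 and Sned1, at Euclidean distances of 0.192, 0.225 and 0.251 in centred log2(FPKM + 0.5). Gchfr gave 28.4, 25.5 and 22.4 FPKM (WT) against 146, 156 and 132 (KO). The log2 fold changes of the 3 were 2.49, 2.40 and 2.51, near that of Cpt1a, so the measure mainly reads the group difference.

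Markers of other cell types bore on these libraries as follows. Of 5 tested adipocyte markers 4 were lower and 0 higher, while of all tested rows 36.7% were lower and 28.5% higher. The 9 measured together came to 277 to 359 FPKM in WT and 107 to 152 in KO, nearly all from Fabp4 and Lpl. Adipoq gave 1.87, 1.55 and 1.26 FPKM (WT) against 0.0443, 0 and 0 (KO), and Lep was listed at 0 throughout. Fabp4 had a mean of 159 FPKM in WT and 3.44 in KO, while Lpl had 151.5 and 123 and did not pass (limma adjusted p = 0.0927). Preadipocyte and fibroblast markers summed to 5310 to 6055 FPKM in WT and 4416 to 4524 in KO, with 3 of 8 tested higher and 5 lower. Brown fat markers summed to at most 0.0461 FPKM in WT and to 0.525 to 1.06 in KO, mainly Ppargc1a, with Ucp1 listed at 0 throughout. Macrophage, endothelial, epithelial and muscle lists summed to under 5 FPKM in every library (at most 1.64, 2.45, 4.495 and 1.36), and the hepatocyte list was at 0. In bulk RNA, fewer cells of a type and less RNA per cell cannot be told apart, and the part of these shifts in the members' values was not tested.

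Depth was estimated from the lowest values at 17100000 to 20800000 fragments in WT and 18400000 to 25900000 in KO. By the longest annotated transcript, that puts 240 to 517 fragments behind Slc25a20 in a library, the fewest of the members, 421 to 3482 behind Cpt1a and 2612 to 4616 behind Hadha. A single row, the clone AC166252.2, took 16.7% to 23.71% of the FPKM sum in KO libraries and at most 2.1% in WT. Median-ratio scaling and quantile normalization left the 6 calls of the members in place, as the plot of members under each setting shows.

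**Figure D5:**
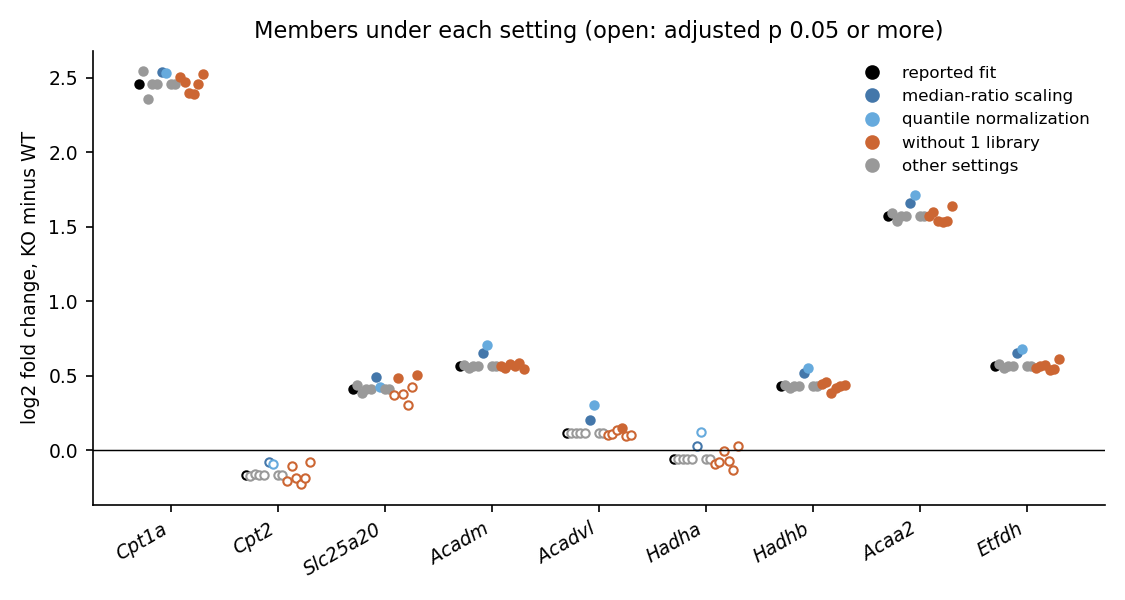
Log2 fold change of each member under the reported fit, each other setting and each fit without 1 library; open symbols had an adjusted p of 0.05 or more. Cpt1a, Acadm, Hadhb, Acaa2 and Etfdh stay filled throughout, Slc25a20 opens in 4 of the fits without 1 library, and Hadha crosses 0.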

How the data were processed

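RNA was sequenced in 3 WT and 3 SWELL1 KO libraries. The submitters' processing notes name Cufflinks 2.02, TopHat and GRCm38, while their settings, annotation release and strand use were not stated. The deposited values of 31097 rows are taken to be FPKM made by the authors, from the use of Cufflinks and from the values, since no header names the unit. An exact 0 in such a table can be a failed estimate, so genes at 0 are only said to be listed at 0. Values were used as deposited. The 10515 rows whose mean reached 0.5 FPKM entered a limma fit (3.58.1, R 4.3.3) of log2(FPKM + 0.5) by group (mean-variance trend, two-sided, Benjamini-Hochberg adjustment over all tested rows, threshold 0.05), a scale that understates the change of low genes. A fold is the ratio of mean FPKM. Ratios within libraries were compared by an exact permutation test in scipy 1.17.1. Rows shared with another protein-coding gene were kept out of the lists, and gene positions are from GENCODE M21 (GRCm38). Depth was estimated by taking the most frequent low value, scaled by transcript length, as 1 fragment, over 1237 single-transcript genes that reach 2500 bases; no interval was drawn from it. The fit was tested on simulated data before use. The members and lists were chosen with earlier results of these data known; the genes named from each list were up to 3 of the largest increases and decreases that passed, with groups that did not overlap and no library at 0, and the 6 receptor and coactivator genes Ppara, Ppard, Pparg, Ppargc1a, Ppargc1b and Esrra. Likeness to Cpt1a was sought among tested rows with a single gene name and a mean of at least 5 FPKM. Mlycd, Prkab1, Sirt3 and the genes under other observations were chosen after their values were seen. So were 4 further motifs (the CCAAT, GC and TATA boxes and the cyclic AMP response element). Other pseudocounts, filters, scalings, a robust fit, a replicate block and fits without 1 library were run beside the reported fit. Replicate numbers were not used as a pairing in the reported fit. Some genes that the rule for named genes selects are not reported here.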

Additional observations from a re-analysis of the deposited data

How the results depend on the processing

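Direction and call of Cpt1a, Acadm, Hadhb, Acaa2 and Etfdh held under all 14 alternatives, with log2 fold changes without 1 library of 2.39 to 2.52 for Cpt1a and 1.53 to 1.64 for Acaa2. Slc25a20 was called in 10 of 14 and ranged from 0.30 to 0.51 without 1 library. Hadha, never called, changed sign to 0.027 under median-ratio scaling and 0.12 under quantile normalization, and without 1 library ran from -0.14 to 0.024, positive without KO replicate 3. Under quantile normalization Etfa and Acly turned to 0.038 and 0.034, and 39 genes of the related lists were called higher against 24. All rows gave 2998 higher and 3862 lower calls, with 3463 and 3381 after median-ratio scaling, and quantile normalization gave 3431 and 3378. With the replicate number as a replicate block there were 2846 higher and 3688 lower calls and 6 members higher. Over all tested rows same-numbered libraries did not deviate together (r = 0.003, 0.012 and -0.093). A correlation over all rows cannot exclude a pairing that shows in some genes, so whether the numbers pair the libraries is not known. The block lost the calls of Sirt1 and Chchd3 among named genes. No cause of these changes was tested. Acly was also lost under median-ratio scaling and in 4 of 6 fits without 1 library, and Chchd3 under both scalings and in 4 of 6. The planned ratio of Acadl to Acadm was not run.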

Other observations

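Some rows of genes around this pathway differed between libraries of the same group by far more than the members did. Sdhc, a succinate dehydrogenase subunit gene, was at 61.4 and 63.9 FPKM in KO replicates 1 and 2 and at 222.9 in KO replicate 3, against 61.9 to 70.7 in WT. Rxrb, a PPAR partner receptor gene, was listed at 0 in WT replicate 1 beside 49.8 and 46.6 in WT replicates 2 and 3, and lay between 22.2 and 23.7 in KO. Decr1, the dienoyl-CoA reductase gene of beta-oxidation, was at 19.3, 10.1 and 18.9 FPKM in WT and between 9.31 and 11.6 in KO. Tfam, which maintains mitochondrial DNA, was at 10.5 FPKM in KO replicate 1 and at 22.2 and 23.4 in KO replicates 2 and 3, against 13.1 to 16.2 in WT. None of these rows passed the limma test (adjusted p = 0.397, 0.601, 0.117 and 0.499).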
